A study of Mus musculus with 56 samples.

Results

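Quiescent hepatic stellate cells were followed through 10 marker genes, Lrat, Des, Reln, Hgf, Rgs5, Dcn, Ecm1, Ngfr, Lhx2 and Bmp5, out of 45513 genes counted in mouse liver. The genes were chosen by name as markers of this cell type, and each symbol was matched to 1 Ensembl identifier. The rule uses no measured value, although the list was drawn up with earlier results of these data known. RNA of 56 livers was sequenced, 8 from each of 7 groups, in a study of the tyrosine kinase inhibitors imatinib, nilotinib and ponatinib, which target the BCR-ABL1 fusion kinase of chronic myeloid leukemia. All mice were female APOE*3Leiden.CETP transgenics, a model with a human-like lipoprotein profile, were taken into the study at 9 to 14 weeks of age and ate a Western-type diet with 15% cacao butter and 0.15% cholesterol. Control mice were gavaged with vehicle, 5% carboxymethyl cellulose. Imatinib was given at 150 mg/kg 2 times per day, nilotinib at 10 or 30 mg/kg and ponatinib at 3 or 10 mg/kg 1 time per day, with vehicle as the other daily gavage. The study's methods give a run-in on the diet followed by several months of inhibitor treatment, so the livers came from older mice than the age at entry. The reference group for vascular dysfunction drank water with 0.12 to 0.20% L-NAME, an inhibitor of nitric oxide synthase. Every group, control included, thus carried both transgenes and the diet, and no group without them was analysed here.

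Hepatic stellate cells lie between the hepatocytes and the sinusoidal endothelium and store most of the vitamin A of the body as retinyl esters in lipid droplets. In the resting state they express retinoid-handling, neural and pericyte genes and secrete growth factors for hepatocytes. After liver injury they lose their droplets and turn into contractile, collagen-producing myofibroblasts, which is why platelet-derived growth factor and its receptor kinases, targets of several of these inhibitors, are studied in fibrosis. Several of the markers are also made elsewhere in the liver: decorin (Dcn) by portal fibroblasts, desmin (Des) and Rgs5 by vascular mural cells, and Ecm1 by hepatocytes.

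Reads assigned to genes numbered 5342379 to 97473341 per mouse, with a median of 7570238. Mouse 10 of the L-NAME group was the deepest library and also had the highest share of reads outside annotated genes, at 16.8%. That share was 7.97% ± 0.422 (SD, n = 8) in control mice and 8.53% ± 0.612 with 3 mg/kg ponatinib, whereas the means of the other groups lay between 9.75 and 11.0%, so this technical measure moved with treatment. Hepatocyte markers dominated every library, as albumin alone reached 86700 ± 15700 CPM (counts scaled to a common library size with TMM factors; SD, n = 8) in control mice. All 10 stellate cell markers had enough counts to be tested, and their median counts per mouse ranged from 36 for Hgf to 1791 for Dcn. Hgf had 0 counts in 1 mouse on 10 mg/kg nilotinib and in 1 mouse on 10 mg/kg ponatinib, and a count of 0 allows up to 3 counts. In whole liver, fewer stellate cells and less RNA per stellate cell cannot be told apart.

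The starts of 9 of the 10 genes were found among RefSeq promoters of GRCm38.p6, each spanning 250 bases before to 50 bases after the start. The promoters of Lrat and Ecm1 are shown because these genes carried 3 of the 4 calls described in what follows. Capitals mark the TATA box (TATAAA), the GC box (GGGCGG), the CCAAT box, the nuclear receptor motif AGGTCA and the TEAD motif GGAATG, each searched on both strands. Lrat is at chr3:82903925-82904224 and Ecm1 at chr3:95739520-95739819, both on the minus strand and written 5′ to 3′.
Lrat: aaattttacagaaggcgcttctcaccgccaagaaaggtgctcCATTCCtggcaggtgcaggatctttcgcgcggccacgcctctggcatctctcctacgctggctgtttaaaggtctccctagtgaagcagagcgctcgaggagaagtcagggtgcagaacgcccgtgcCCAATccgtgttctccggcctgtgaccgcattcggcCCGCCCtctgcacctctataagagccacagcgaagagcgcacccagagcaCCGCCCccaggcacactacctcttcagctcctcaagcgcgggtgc
Ecm1: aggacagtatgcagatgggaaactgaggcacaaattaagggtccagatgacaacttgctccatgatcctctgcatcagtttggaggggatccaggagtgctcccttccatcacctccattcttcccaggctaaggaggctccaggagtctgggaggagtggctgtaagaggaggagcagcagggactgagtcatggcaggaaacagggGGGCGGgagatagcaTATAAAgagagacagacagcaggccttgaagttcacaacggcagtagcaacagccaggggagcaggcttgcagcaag
TATAAA was found in 1 of the 11 promoter entries of the markers, that of Ecm1, and in 13.6% of all 32851 promoters of this length. GC boxes were found in 6 of the 11 entries and in 35.7% of all promoters, and GGAATG in the Lrat entry and in 14.7% of all promoters. AGGTCA was found in 0 of the 11 entries and in 16.3% of all promoters. These matches describe the letters of the windows, not binding.

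Per kilobase of exon, the scale on which genes can be compared, Ecm1 had the highest level in control mice, 68.7 ± 12.9 CPM per kb (SD, n = 8). Dcn followed with 43.8 ± 12.7, Rgs5 with 14.0 ± 2.71 and Lrat with 8.05 ± 2.33 CPM per kb. Bmp5 (4.19 ± 1.28), Reln (3.0 ± 0.761), Ngfr (2.66 ± 1.06) and Des (2.26 ± 0.509) formed a middle tier on this per-kilobase scale, above Lhx2 (1.26 ± 0.198) and Hgf (0.927 ± 0.48). Neighbours whose mean ± SD ranges overlapped were Ecm1 and Dcn, Bmp5 and Reln, Reln and Ngfr, Ngfr and Des, and Lhx2 and Hgf. The other neighbours in this order were separated by more than these SDs.

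**Figure D1:**
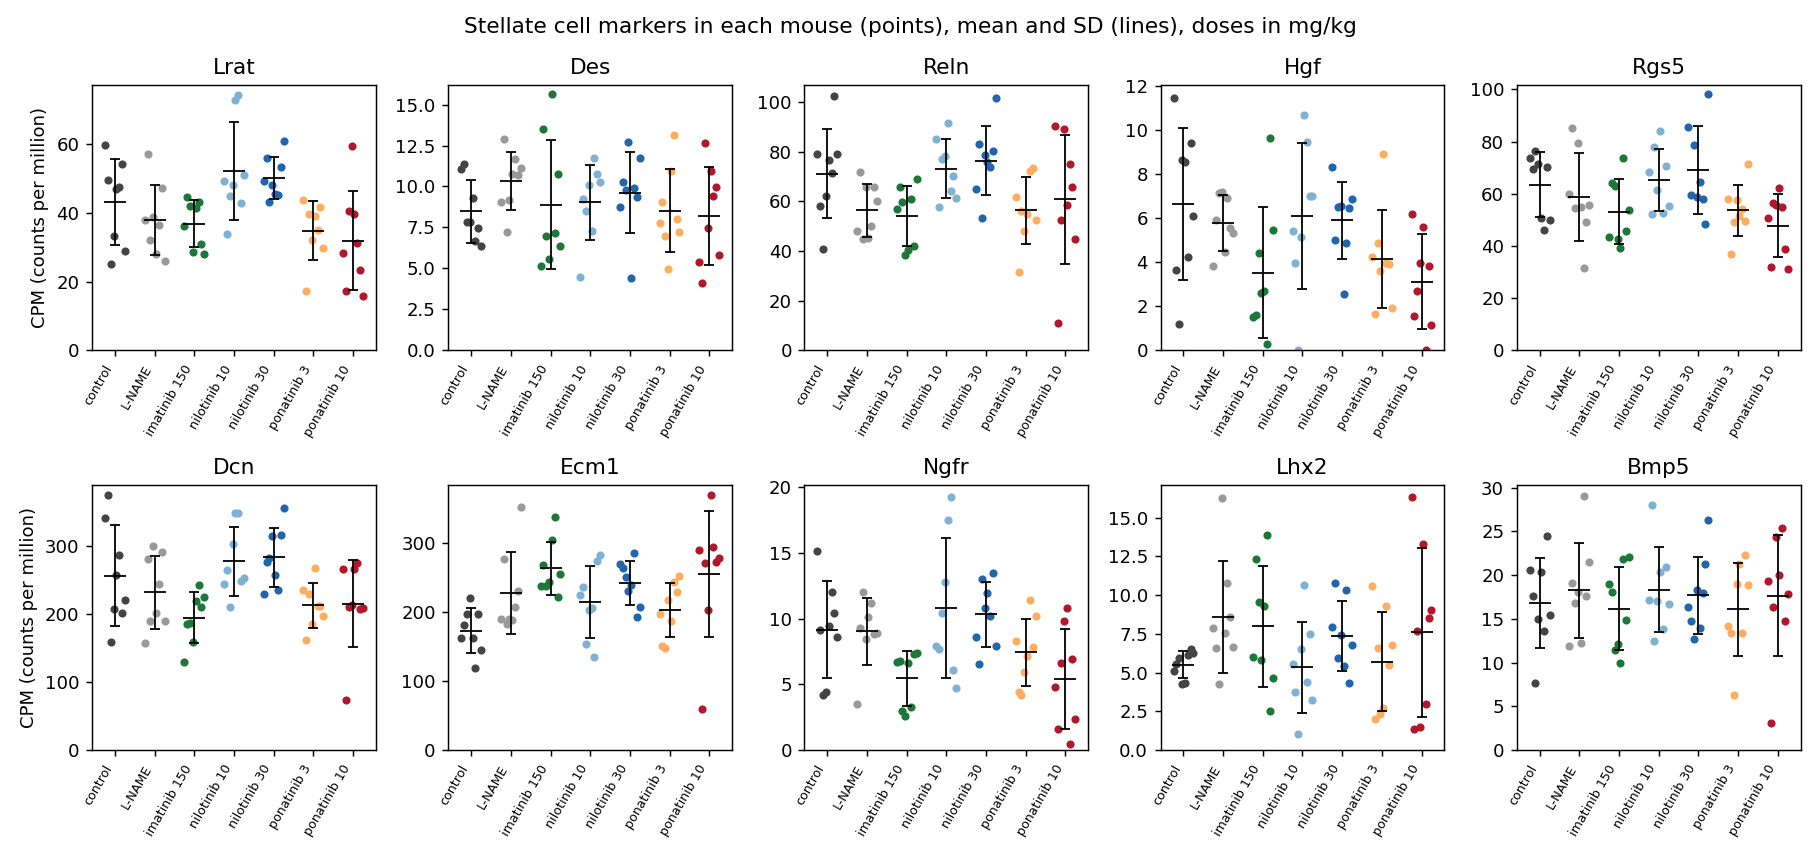
CPM of each marker (y axis, linear, starting at 0) in each of the 8 mice of the 7 groups (x axis), with mean and SD as black lines. For Ecm1 all 8 imatinib mice lie above the highest control mouse (220 CPM), the lowest of them only just. For the other 9 markers the range of every treated group overlaps that of the control mice. The share of all genes separated in this way was not counted.

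Against control, 2 of 60 marker tests passed an adjusted p below 0.05 in edgeR, and both were increases of Ecm1. With imatinib 1 of 10 markers was called, where 10.3% of the 14314 tested genes were called. With 10 mg/kg ponatinib 1 of 10 was called, against a background of 13.1%, so neither count stood above that of all genes. No marker was called with L-NAME (background 11.8%), 10 mg/kg nilotinib (1.41%), 30 mg/kg nilotinib (5.77%) or 3 mg/kg ponatinib (0.0419%) in edgeR. Among these 4 comparisons with 0 calls, unadjusted p was below 0.05 for 1 marker with L-NAME and 1 with 30 mg/kg nilotinib, in both cases Ecm1. With 30 mg/kg nilotinib Ecm1 was called by DESeq2 and by limma voom with sample quality weights. There DESeq2 called 12.7% of the 9596 genes it tested, and voom 16.4% of 14314. With L-NAME voom called Des and Ecm1 higher, where it called 26.1% of all genes. In the 10 mg/kg nilotinib and 3 mg/kg ponatinib comparisons unadjusted p was below 0.05 for 0 markers, and both other tools called 0. No marker was called lower than control by edgeR in any group, but voom called decreases. With imatinib voom called Reln (log2 fold change -0.57, adjusted p = 0.011), Hgf (-1.33, 0.0482), Dcn (-0.41, 0.0256) and Ngfr (-1.10, 0.0144) lower beside the increase of Ecm1, and 23.2% of all genes. With 10 mg/kg ponatinib voom called Reln (-0.47, adjusted p = 0.0434), Hgf (-1.61, 0.0325) and Ngfr (-1.12, 0.0197) lower beside the increase of Ecm1, and 26.1% of all genes. The median log2 fold change of the 10 markers was -0.24 with imatinib, -0.24 with 10 mg/kg ponatinib, -0.26 with 3 mg/kg ponatinib, 0.11 and 0.15 with 10 and 30 mg/kg nilotinib and -0.07 with L-NAME. The median over all tested genes lay between -0.02 and 0.03 in these comparisons, which share their control mice.

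**Figure D2:**
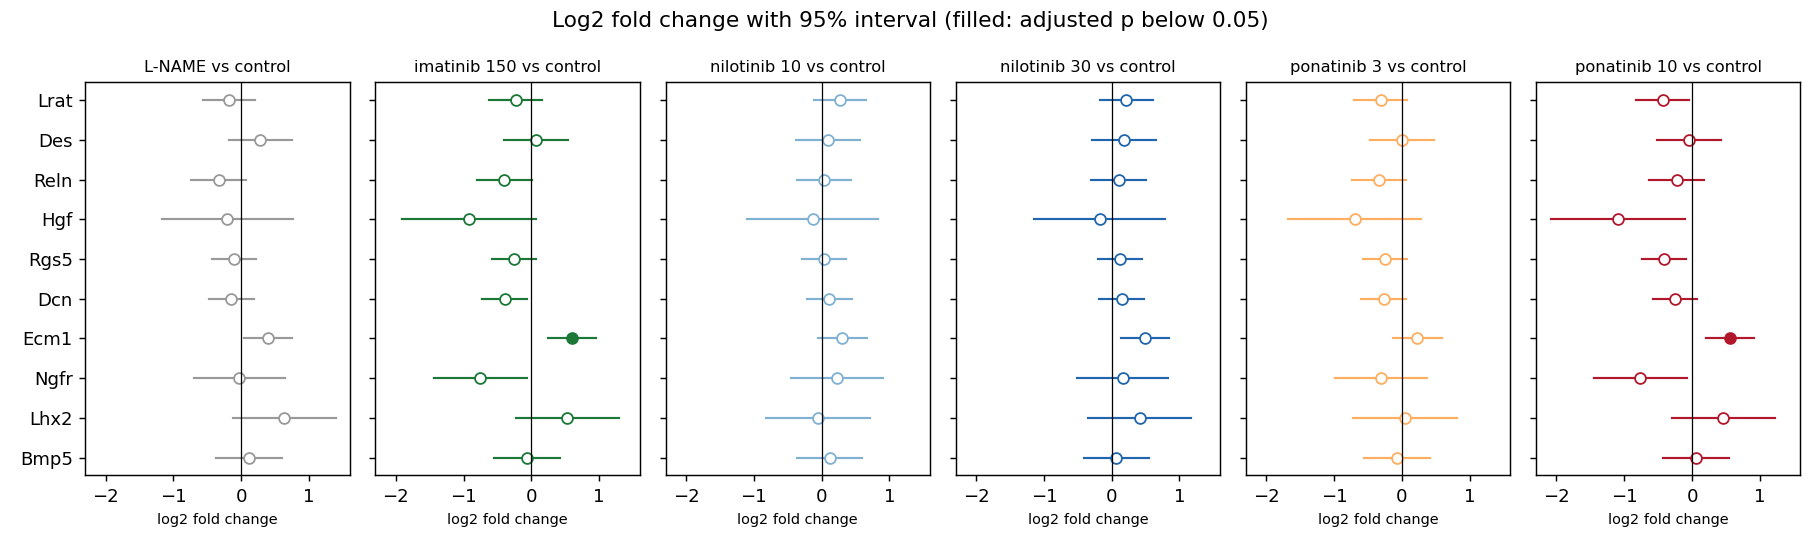
Log2 fold change against control (x axis) with its 95% interval for each marker (y axis) in the 6 treated groups, filled where the adjusted p was below 0.05. The filled points are Ecm1 with imatinib (0.60) and with 10 mg/kg ponatinib (0.56), and the widest intervals are those of Hgf.

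Lrat encodes lecithin retinol acyltransferase, which esterifies retinol for storage and is a marker of these vitamin A-storing cells (chr3:82892579-82903973, 5351 bases of exon). Control mice had 25.1 to 59.6 CPM, with a median of 47.2. Mice on 10 mg/kg ponatinib had 15.8 to 59.4 CPM with a median of 29.7, and 3 of the 8 lay below every control mouse. With 3 mg/kg ponatinib the range was 17.2 to 43.8 CPM with a median of 37.0, and 1 mouse lay below the control range. The log2 fold change was -0.43 (SE 0.196, 95% interval -0.83 to -0.04, adjusted p = 0.141) at the high and -0.31 (SE 0.195, adjusted p = 0.622) at the low dose, so neither passed. Imatinib mice (27.9 to 44.5 CPM, median 38.7) and L-NAME mice (25.9 to 57.0 CPM, median 37.2) all lay within the control range. Nilotinib mice ranged from 33.8 to 74.2 CPM at 10 mg/kg and from 43.0 to 60.9 CPM at 30 mg/kg, both with a median of 48.7, and 2 and 1 of them exceeded every control mouse. Leaving out mouse 18 of the high-dose ponatinib group, the highest of its group at 59.4 CPM, moved the Lrat log2 fold change to -0.62 with an adjusted p of 0.0165. Lrat was therefore not called against control in the full fit, and a call appeared only on leaving out this mouse. Its library had the lowest median correlation with its group of all 56 mice (Pearson r = 0.862). The voom quality weight of this library, 0.302, was also the lowest. Voom with these weights did not call Lrat against control with 10 mg/kg ponatinib. Leaving out mouse 8 of that group instead moved the edgeR log2 fold change of Lrat to -0.34 (adjusted p = 0.269).

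Lhx2, a LIM homeobox transcription factor that keeps stellate cells in the resting state (chr2:38339281-38369733), had narrow control levels of 4.26 to 6.53 CPM. Treated mice spread far more widely, from 1.39 to 16.4 CPM with 10 mg/kg ponatinib and from 2.52 to 13.9 CPM with imatinib. With 10 mg/kg ponatinib 5 mice lay above and 3 below every control mouse, so that 0 of 8 fell within the control range. The log2 fold change there was 0.46 (SE 0.38, adjusted p = 0.491). The share of all genes with mice placed in this way was not counted, and the difference in spread was not tested. With L-NAME 7 of 8 mice lay above every control mouse and 1 below, and the log2 fold change of 0.63 (SE 0.379) had an adjusted p of 0.32. Counts of Lhx2 were low, with a median of 52 per mouse, and the 95% interval with imatinib ran from -0.23 to 1.29. Desmin, the intermediate filament of stellate cells and muscle (Des, chr1:75360329-75368579), ranged from 6.35 to 11.4 CPM in control mice and from 4.08 to 15.6 CPM over all treated mice. Its log2 fold changes lay between -0.05 and 0.29 and none passed in edgeR, whereas voom called Des higher with L-NAME (log2 fold change 0.50, adjusted p = 0.035).

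Reelin, a secreted glycoprotein known from neuronal migration (Reln, chr5:21884454-22344702), had 40.9 to 102 CPM in control mice with a median of 73.9. Medians were 58.2 CPM with imatinib, 55.1 with L-NAME and 55.6 with 3 mg/kg ponatinib, and the ranges of all 3 groups overlapped that of control. The log2 fold changes of Reln in these groups by edgeR were -0.40, -0.33 and -0.34, with adjusted p of 0.22, 0.321 and 0.601. Decorin, a small leucine-rich proteoglycan that binds collagen and growth factors (Dcn, chr10:97479609-97518143), had 159 to 375 CPM in control mice with a median of 239. Imatinib mice had 129 to 242 CPM with a median of 199, and 2 of 8 lay below every control mouse. The log2 fold change of Dcn with imatinib was -0.40 (SE 0.165, adjusted p = 0.12) and did not pass in edgeR.

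Ecm1, extracellular matrix protein 1 (chr3:95734147-95739569), is a secreted glycoprotein that binds matrix proteins and, in the liver, holds latent transforming growth factor beta inactive. Control mice had 119 to 220 CPM, with a median of 172. All 8 imatinib mice lay above every control mouse, at 221 to 337 CPM with a median of 249. The lowest of them barely cleared the highest control mouse, and the share of all genes separated in this way was not counted. Of the mice on 10 mg/kg ponatinib 6 lay above every control mouse and 1 below, with a range of 59.7 to 369 CPM and a median of 276. The log2 fold change was 0.60 (SE 0.178, adjusted p = 0.0198) with imatinib and 0.56 (SE 0.178, adjusted p = 0.0273) with 10 mg/kg ponatinib. With 30 mg/kg nilotinib, 192 to 286 CPM, 6 of 8 mice exceeded every control mouse, and the log2 fold change of 0.49 (SE 0.178) had an adjusted p of 0.0948. L-NAME (182 to 353 CPM), 10 mg/kg nilotinib (135 to 283 CPM) and 3 mg/kg ponatinib (148 to 252 CPM) gave log2 fold changes of 0.39, 0.31 and 0.23 that did not pass. Ecm1 was the 1 marker whose log2 fold change lay above 0 by at least 1 SE in all 6 treated groups. When the share of reads outside genes, which was lowest in control mice, entered the fit as a covariate, both calls were lost, with log2 fold changes of 0.47 (adjusted p = 0.144) and 0.33 (adjusted p = 0.471). That share and treatment cannot be fully told apart here. The covariate also lowered the calls over all genes, from 1471 to 653 with imatinib and from 1877 to 369 with 10 mg/kg ponatinib. Without control mouse 40, the lowest control at 119 CPM, the adjusted p of Ecm1 was 0.0552 with imatinib and 0.0693 with ponatinib. The ponatinib call was also lost without control mouse 52 or ponatinib mouse 2, 24, 35 or 48, with adjusted p between 0.0517 and 0.0846.

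Hgf encodes hepatocyte growth factor, the stellate cell mitogen for hepatocytes (chr5:16553495-16620152, 6.74% of its exon bases shared with Gm43489). Control mice had 1.21 to 11.5 CPM, with a median of 7.34. The medians were 2.64 CPM with imatinib and 3.27 CPM with 10 mg/kg ponatinib, and 1 and 2 mice of these groups lay below every control mouse. The log2 fold changes of -0.92 (SE 0.493, 95% interval -1.90 to 0.07) and -1.09 (SE 0.496, 95% interval -2.09 to -0.10) had adjusted p of 0.258 and 0.143. Neither passed in edgeR, and voom called both. Hgf had the fewest counts of the 10 markers and the largest SE in each of the 6 comparisons. Bmp5, a bone morphogenetic protein (chr9:75775364-75900310), had 7.68 to 24.5 CPM in control mice. Its log2 fold changes lay between -0.07 and 0.12, each with an SE of 0.242 or 0.243. Of its exon bases 46.7% overlap the antisense gene Gm26903, which had a median count of 0 and a maximum of 114. As the strand setting of the counting was not given in the sources used here, how reads in the shared bases were assigned is not known.

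Rgs5, a regulator of G protein signalling found in pericytes and stellate cells (chr1:169655501-169695813), had 46.0 to 76.4 CPM in control mice with a median of 69.8. With 10 mg/kg ponatinib the range was 31.2 to 62.1 CPM with a median of 52.9, and 3 of 8 mice lay below every control mouse. The log2 fold change of Rgs5 was -0.41 (SE 0.163, 95% interval -0.74 to -0.09, adjusted p = 0.0831). With imatinib 4 of 8 mice lay below the control range, at a log2 fold change of -0.26 (adjusted p = 0.36). Ngfr, the low-affinity receptor of neurotrophins (chr11:95568818-95587735), had 4.17 to 15.2 CPM in control mice with a median of 9.25. Imatinib mice had 2.62 to 7.35 CPM and mice on 10 mg/kg ponatinib 0.428 to 10.8 CPM, and 3 of 8 in each group lay below every control mouse. The log2 fold changes of Ngfr were -0.76 (adjusted p = 0.16) and -0.77 (adjusted p = 0.138) in edgeR, while voom called both.

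Of the 4 calls over all comparisons, 2 lay between nilotinib and another inhibitor. At the 1 nominal dose given for both, 10 mg/kg, Lrat was lower with ponatinib than with nilotinib, by 0.71 on the log2 scale (log2 fold change -0.71, SE 0.196, adjusted p = 0.0367). Lrat had 15.8 to 59.4 CPM with ponatinib and 33.8 to 74.2 CPM with nilotinib, so the groups overlapped. 1 of 10 markers was called in this comparison, against 2.06% of all genes. Leaving out any 1 of mice 2, 8, 35, 42 and 48 of the ponatinib group or mice 25, 30 and 36 of the nilotinib group ended the call, with adjusted p between 0.0517 and 0.116. Equal doses of different drugs need not give equal exposures.

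At the higher doses, Dcn was lower with imatinib than with 30 mg/kg nilotinib, 129 to 242 against 230 to 356 CPM (log2 fold change -0.54, SE 0.165, adjusted p = 0.0489). It was the 1 of 10 markers called there, against 3.59% of all genes, and the doses differ between these drugs. Leaving out any 1 of imatinib mice 6, 11, 16, 21, 27, 51 and 56 or nilotinib mice 15, 20, 31, 37, 49 and 54 ended the call, with adjusted p between 0.0522 and 0.121. So did the covariate (adjusted p = 0.0583), no filter on low counts (0.0599) and a fit without the L-NAME group (0.0527). Between 10 mg/kg ponatinib and 30 mg/kg nilotinib (background 1.88%) 0 markers were called by edgeR, but 4 had an unadjusted p below 0.05, and both DESeq2 and voom called 2. DESeq2 called Lrat and Rgs5 lower (3.66% of the 11816 genes it tested) and voom called Lrat and Ngfr lower (5.32% of 14314). The lowest adjusted p in edgeR were those of Lrat (log2 fold change -0.65, adjusted p = 0.0631) and Rgs5 (-0.53, adjusted p = 0.0729). Ngfr gave log2 fold changes of -0.92 (adjusted p = 0.131) for imatinib and -0.93 (adjusted p = 0.169) for 10 mg/kg ponatinib, each against 30 mg/kg nilotinib. Against that dose voom called Dcn, Ngfr and Reln lower with imatinib, and 7.51% of all genes. In these drug comparisons 8 of 10 markers had a log2 fold change below 0, with medians of -0.41 for imatinib and -0.37 for ponatinib against 30 mg/kg nilotinib. Between 10 mg/kg ponatinib and imatinib (1.08%), between the ponatinib doses (1.39%) and between the nilotinib doses (0%) 0 markers were called by edgeR, DESeq2 or voom, and 0 had an unadjusted p below 0.05. For the nilotinib doses 0 of 14314 genes were called, although 812 had an unadjusted p below 0.05, and DESeq2 called 2 genes and voom 0. The 95% interval for Lrat between the nilotinib doses was -0.44 to 0.33, and between the ponatinib doses it was -0.51 to 0.27.

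In its marker levels, mouse 8 of the 10 mg/kg ponatinib group stood apart from the rest of its group. It had the lowest value of its group for Des, Reln, Dcn, Ecm1, Lhx2 and Bmp5, with Reln at 10.9 CPM against 45.0 to 90.4 CPM in the other 7 mice. Its mean deviation from the group means over the markers was -2.89 SDs, whereas the next lowest mouse of all 56, mouse 13 of the 3 mg/kg ponatinib group, was at -1.14. The same liver had 11900 CPM of the acute-phase gene Saa1 and 1910 CPM of Lcn2, against 9.94 to 111 and 3.27 to 99.4 CPM in the other 7 mice. Of 4 endothelial transcripts looked at, 3 were below the other 7 mice: Eng was at 8.73 CPM against 47.1 to 90.0 CPM, Kdr at 3.9 against 14.7 to 42.2 CPM and Clec4g at 4.36 against 27.4 to 55.6 CPM. The fourth, Stab2, lay within their range at 53.2 CPM against 27.1 to 74.1 CPM. The hepatocyte transcript Alb was below the other 7 mice too, at 44000 against 85600 to 114000 CPM. So were the stellate cell transcripts Colec11, at 16.7 against 50.4 to 86.1 CPM, and Pdgfrb, at 10.0 against 12.5 to 35.1 CPM. These genes were named after their values were seen, and their part in the marker levels was not tested. Without this mouse the Ecm1 log2 fold change with 10 mg/kg ponatinib was 0.71 (adjusted p = 0.00043) instead of 0.56, and that of Lrat -0.34 (adjusted p = 0.269) instead of -0.43. Against 10 mg/kg nilotinib the Lrat difference became -0.61 (adjusted p = 0.0696).

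**Figure D3:**
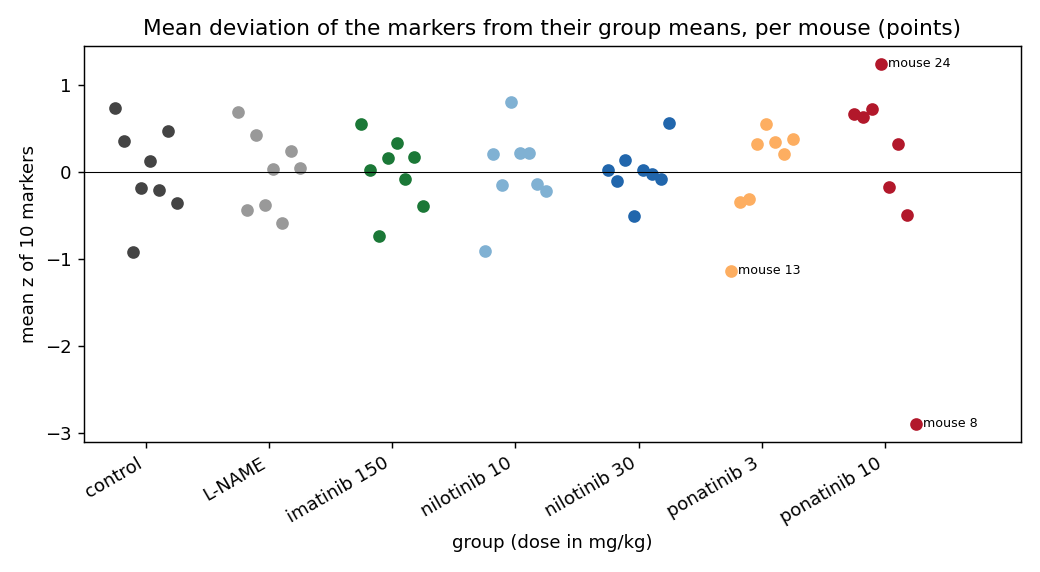
Mean z-score of the 10 markers (y axis, log2 CPM with group means subtracted) for each mouse, by group (x axis). Mouse 8 of the 10 mg/kg ponatinib group sits at -2.89, below mouse 13 of the 3 mg/kg group at -1.14, and mouse 24 of the 10 mg/kg group is highest at 1.24.

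Apart from treatment, several markers varied together between mice. With group means subtracted, log2 CPM of Lrat correlated across 56 mice with Reln (Pearson r = 0.58, rho = 0.53, permutation adjusted p = 0.000315 and 0.00045) and with Dcn (r = 0.57, rho = 0.58, permutation adjusted p = 0.000315 and 9e-05). Rgs5 (r = 0.42, rho = 0.39, permutation adjusted p = 0.00711 and 0.017), Ngfr (r = 0.41, rho = 0.36, permutation adjusted p = 0.0414 and 0.0353) and Des (r = 0.32, rho = 0.33, permutation adjusted p = 0.0424 and 0.0353) also passed. Of the 9 relations tested, those of Lrat with Bmp5 (r = 0.33), Hgf (0.26), Lhx2 (0.21) and Ecm1 (0.13) did not pass, with permutation adjusted p for r of 0.0845, 0.126, 0.26 and 0.531 and rho of 0.27, 0.30, 0.25 and 0.01. Without the 2 mice farthest from the median of Lrat, r was 0.51 for Reln, 0.59 for Dcn, 0.37 for Rgs5, 0.33 for Ngfr and 0.39 for Des. Without mouse 8, Reln, Dcn and Rgs5 kept an adjusted p below 0.05 and Ngfr and Des did not (permutation adjusted p = 0.0747 and 0.0929). Ecm1, the marker that rose with imatinib and ponatinib, followed Lrat least, with r = 0.13 in all mice and -0.07 without mouse 8. Over all 45 marker pairs r was above 0 for 44, with a median of 0.27 and a maximum of 0.70 for Reln and Bmp5. Without mouse 8 it was above 0 for 39 pairs with a median of 0.18, and Reln and Bmp5 were at 0.50, so part of the shared variation rested on that liver. All values of a mouse share 1 library, and its depth and cell composition. The same values for pairs of other genes were not computed, so the 44 of 45 pairs have no baseline beside them.

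**Figure D4:**
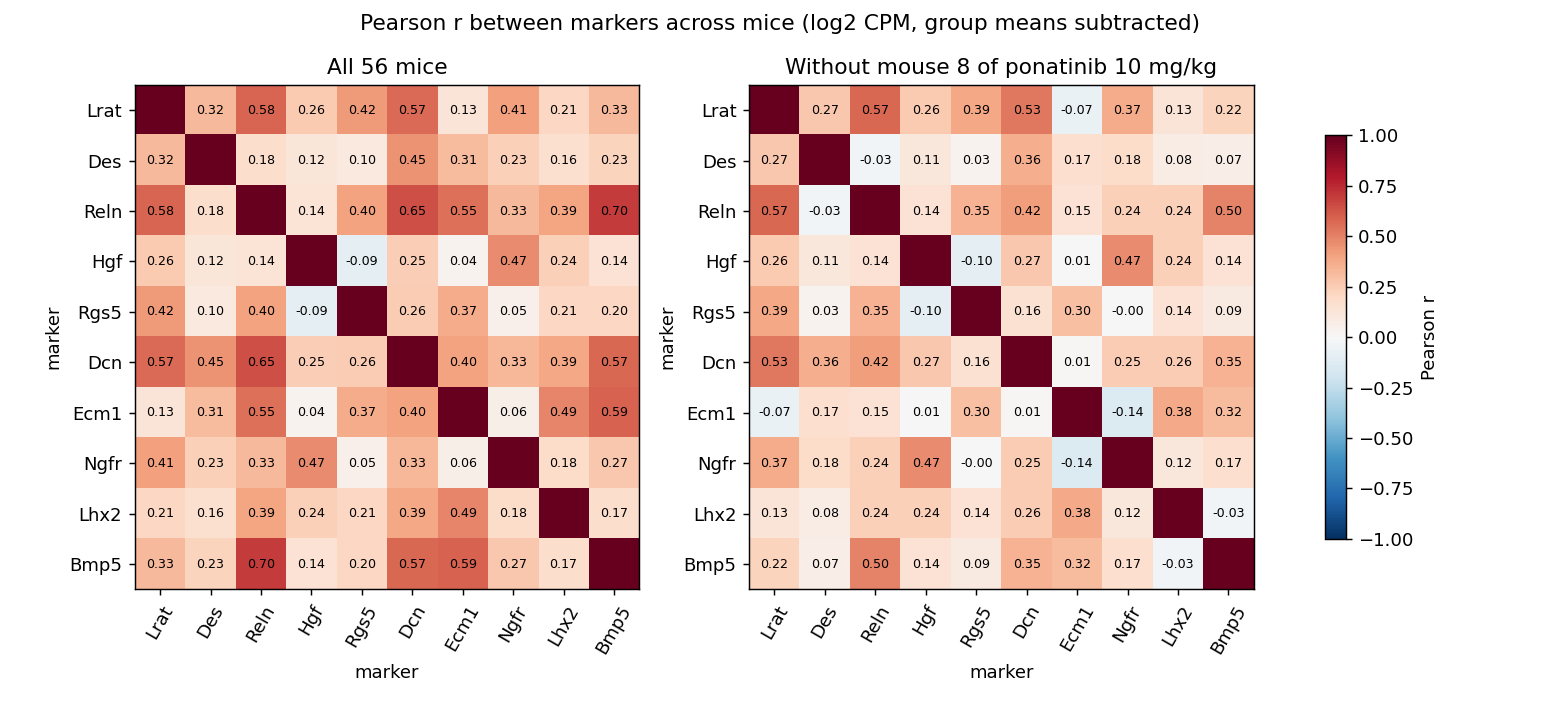
Pearson r between each pair of markers (both axes) across 56 mice after subtraction of group means, in all mice (left) and without mouse 8 of the 10 mg/kg ponatinib group (right), with color from -1 to 1. Reln and Bmp5 go from 0.70 to 0.50 and Lrat and Ecm1 from 0.13 to -0.07.

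The genes most like the markers across mice, by Pearson r with their mean z-score in 56 mice, were Eng (0.82), Bgn (0.80), Col14a1 (0.80), Pxdn (0.79), Igfbp7 (0.78), Abcc9 (0.76), Ccdc80 (0.76), Dnase1l3 (0.76), Aqp1 (0.76) and Kdr (0.75). These are given as a description. Eng, Aqp1 and Kdr are known from endothelium and Bgn, Col14a1 and Abcc9 from mesenchymal cells. Without mouse 8 Col14a1 (0.74), Eng (0.69), Bgn (0.69), Pxdn (0.68) and Igfbp7 (0.63) remained among the first 10.

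Of 20 other stellate cell markers, edgeR called 2 lower with imatinib and 1 higher and 1 lower with 10 mg/kg ponatinib. Adamtsl2, a secreted matrix protein, had log2 fold changes of -1.50 (adjusted p = 0.00259) and -0.97 (adjusted p = 0.0435). Steap4, a metalloreductase, had -1.12 with imatinib (adjusted p = 0.0294), and the parathyroid hormone receptor Pth1r had 0.60 with 10 mg/kg ponatinib (adjusted p = 0.0456). The other 4 groups had 0 calls in this list, and over the 6 comparisons 21 tests had an unadjusted p below 0.05, DESeq2 called 9 and voom 17. The median log2 fold change of the list was -0.06 with imatinib and -0.05 with 10 mg/kg ponatinib. With 2 of 20 called in each of these groups, the list did not exceed the backgrounds of 10.3% and 13.1%.

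The myofibroblast and activation genes, which stellate cells switch on when they leave the resting state, had medians further from 0 with imatinib and ponatinib. Of 18 genes, 9 fell with imatinib, 4 with 10 mg/kg ponatinib, 3 with 3 mg/kg ponatinib and 1 with L-NAME. The share of all genes called in these comparisons was 10.3, 13.1, 0.0419 and 11.8%, so the L-NAME count lay below its background, and the 3 genes with 3 mg/kg ponatinib were among 6 called over all genes. With imatinib the largest were Lox, a collagen cross-linking enzyme (log2 fold change -3.26, adjusted p = 0.047), and the collagens Col1a1 (-3.03, adjusted p = 3.7e-05), Col3a1 (-2.60) and Col1a2 (-2.35). Lox was low in control mice, at 2.35 ± 1.43 CPM (SD), and its SE was 1.11. With 10 mg/kg ponatinib Col1a1 changed by -2.78, Col1a2 by -2.02, Col3a1 by -1.93 and the gelatinase Mmp2 by -1.36, and with 3 mg/kg Col1a1 by -2.31, Col5a2 by -1.87 and Col1a2 by -1.69. With L-NAME Col1a2 changed by -1.23 (adjusted p = 0.011). The median over the 18 genes was -1.33 with imatinib, -0.93 and -1.06 with 10 and 3 mg/kg ponatinib, and -0.29 and 0.02 with 10 and 30 mg/kg nilotinib. With nilotinib edgeR, DESeq2 and voom called 0 of the 18 at either dose, and 1 gene at 10 mg/kg and 0 at 30 mg/kg had an unadjusted p below 0.05. The summed level of the list was 213 to 1020 CPM in control mice and 147 to 186 CPM in imatinib mice, all 8 of them below every control mouse. Col3a1 (204 ± 120 CPM, SD), Col1a1 (101 ± 74.6) and Col1a2 (89.4 ± 52.0) weigh most in that sum in control mice. The share of all genes separated in this way was not counted. The summed level of the 10 quiescent markers had a median of 640 CPM in control mice and 651 CPM in imatinib mice, a sum in which Ecm1 and Dcn weigh most. Whether the lists differ from each other in their response was not tested.

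**Figure D5:**
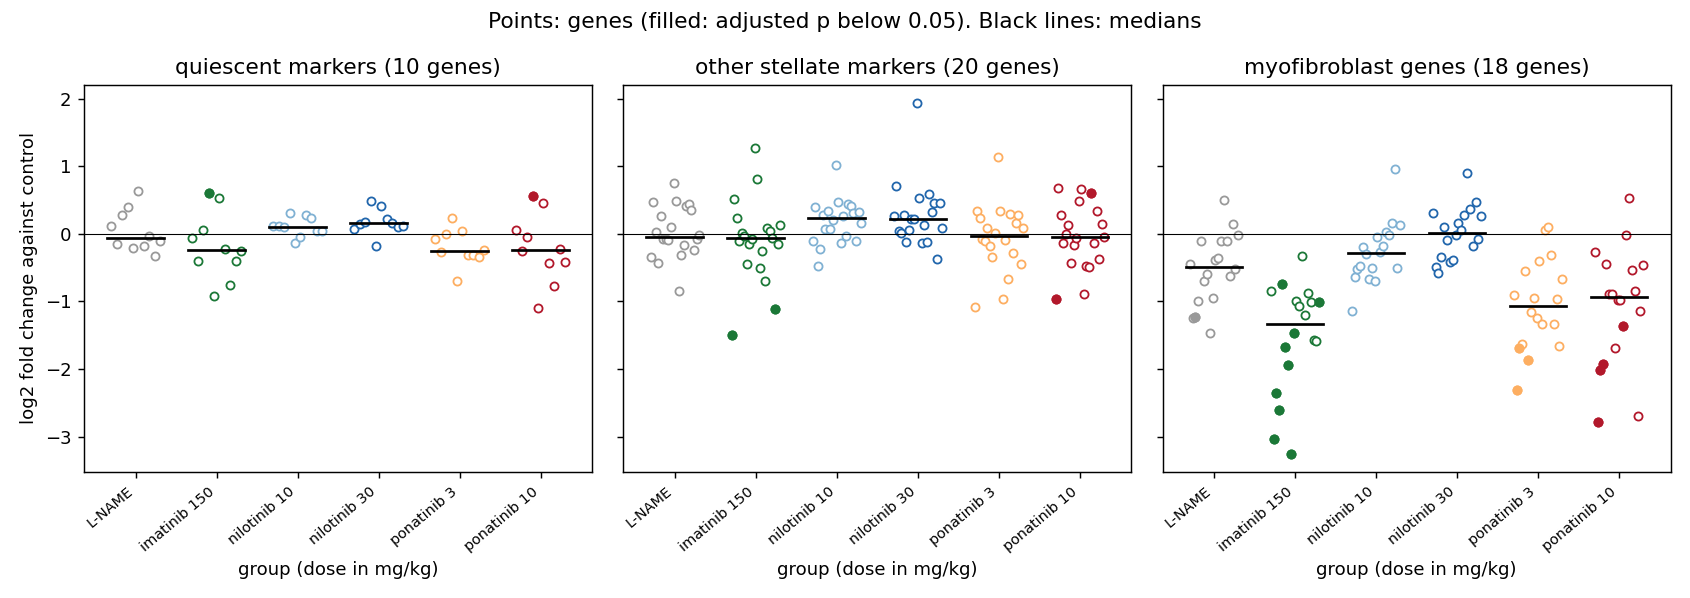
Log2 fold change against control (y axis) of the 10 quiescent markers, 20 other stellate cell markers and 18 myofibroblast genes in the 6 treated groups (x axis), filled where the adjusted p was below 0.05, with list medians as black lines. The myofibroblast medians are -1.33 with imatinib and -0.93 with 10 mg/kg ponatinib, and those of the quiescent markers are -0.24 in both.

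Around the pathways of single markers, the small leucine-rich proteoglycans, the family of decorin, had 3 of 7 tested members lower with imatinib and the same 3, Bgn, Lum and Prelp, lower with 10 mg/kg ponatinib. Bgn changed by -0.77 and -0.76 and lumican (Lum) by -0.98 and -1.29 in these comparisons. The share of all genes called was 10.3% with imatinib, 13.1% with 10 mg/kg ponatinib and 11.8% with L-NAME. It was 1.41 and 5.77% with 10 and 30 mg/kg nilotinib and 0.0419% with 3 mg/kg ponatinib. Of 14 tested genes of retinoid storage and signalling, around Lrat, Rbp4, the retinol carrier of plasma, was higher with imatinib (0.59), 10 mg/kg ponatinib (0.57) and L-NAME (0.45). With 10 mg/kg ponatinib Pnpla3, a lipase of lipid droplets, changed by 1.95, Rarb, a retinoic acid receptor, by -1.11 and Aldh1a1, a retinaldehyde dehydrogenase, by -0.65. Aldh1a1 also fell with L-NAME (-0.49), and the retinoid X receptor Rxra fell with 30 mg/kg nilotinib (-0.60). Of 9 genes that activate, inhibit or receive Hgf, the tissue plasminogen activator Plat fell with imatinib (-2.68) and 10 mg/kg ponatinib (-2.55). Plat was low in control mice, at 3.19 ± 2.32 CPM (SD), and its SEs were 0.892 and 0.881, with adjusted p of 0.0419 and 0.0432. The urokinase Plau fell with imatinib (-1.62), Spint2, an inhibitor of Hgf activation, rose with imatinib (0.64), and the Hgf activator Hgfac rose with 10 mg/kg ponatinib (0.60). Among 11 tested receptors and partners of the markers, the neurotrophin receptor Ntrk2 fell in 5 of the 6 groups, by 2.07 with imatinib to 0.93 with 30 mg/kg nilotinib on the log2 scale. This list had 1 call in each of those groups. The 14 retinoid genes had 1 call with imatinib, 4 with 10 mg/kg ponatinib, 2 with L-NAME and 1 with 30 mg/kg nilotinib. The 9 Hgf-related genes had 3 calls with imatinib and 2 with 10 mg/kg ponatinib. Of 8 tested pericyte and smooth muscle genes, edgeR called 0 in the 6 comparisons, where 2 tests had an unadjusted p below 0.05 and DESeq2 and voom called 0.

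Markers of the other liver cells moved beside the stellate cell markers in part. Beside their calls against control stand shares of all genes of 10.3% with imatinib, 13.1% with 10 mg/kg ponatinib and 11.8% with L-NAME. These shares were 1.41 and 5.77% with 10 and 30 mg/kg nilotinib and 0.0419% with 3 mg/kg ponatinib. Of 9 sinusoidal endothelial markers edgeR called 0 against control in the 6 comparisons (11 tests with an unadjusted p below 0.05, 1 call by DESeq2 and 3 by voom), but all 9 had log2 fold changes below 0 with both ponatinib doses. Their summed level was 201 to 582 CPM in control mice, 120 to 361 CPM with 10 mg/kg ponatinib and 370 to 504 CPM with 30 mg/kg nilotinib. In the comparison of 10 mg/kg ponatinib with 10 mg/kg nilotinib, where Lrat was called, the endothelial Clec4g (-0.86), Fcgr2b (-0.70) and Stab2 (-0.63) were called lower too. These were 3 of 9 endothelial markers, against 2.06% of all genes. In mouse 8 of that ponatinib group Clec4g was at 4.36 CPM against 27.4 to 55.6 CPM in the other 7 mice. Stab2 in mouse 8 lay within their range. The endothelial calls of this comparison without mouse 8 are not given here. Of 9 Kupffer cell markers 3 fell with imatinib, Adgre1 by 1.35, Cd5l by 1.23 and Csf1r by 0.76 on the log2 scale, with summed levels of 527 to 1100 CPM against 883 to 1710 CPM in control mice. Clec4f, another Kupffer cell marker, rose with 30 mg/kg nilotinib (0.64), 10 mg/kg ponatinib (0.61) and L-NAME (0.69), and Marco rose with 10 mg/kg ponatinib (2.32). The rise of Marco had an SE of 0.719 (adjusted p = 0.0227), and its control level of 25.9 ± 46.2 CPM had an SD above its mean. Among 5 leukocyte markers Ptprc (-0.98) and Itgax (-1.60) fell with imatinib. Of 6 hepatocyte markers, Cps1 fell in 5 of 6 groups by 0.81 to 0.92, Ttr rose with imatinib (0.45) and 10 mg/kg ponatinib (0.73), and Serpina1c rose with 10 mg/kg ponatinib (0.66) and L-NAME (0.48). Portal fibroblast (6 tested), mesothelial (4) and cholangiocyte (5) markers had 0 calls by edgeR, with 1, 0 and 0 tests at an unadjusted p below 0.05, 0 calls by DESeq2 and 1, 3 and 2 by voom. Summed mesothelial markers stayed at 0.533 to 15.4 CPM in all mice. The part of these cell types in the stellate cell marker levels was not tested.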

How the data were processed

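Poly(A) RNA of 56 livers was made into libraries with the NEBNext Ultra kit, and the authors deposited raw counts per Ensembl gene. Their processing notes name Bowtie2 2.1.0, TopHat2 2.0.14, SAMtools 0.1.18 and HTSeq 0.6.1p1. The annotation release and the strand setting were not given in the sources used here. Of 45513 identifiers, 44585 were given symbols from GENCODE vM21 (GRCm38). Rows of HTSeq that name no gene were kept out of library sizes and held 7.55 to 16.8% (outside genes) and 2.01 to 3.65% (ambiguous) of uniquely aligned reads, and 31.7 to 42.6% (multiple alignments) of all listed reads. Reads on genes numbered 5342379 to 97473341 per mouse. No 2 libraries were identical.

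Counts were tested with the edgeR 4.0.16 quasi-likelihood test (TMM, filterByExpr, 14314 genes, all 56 mice in 1 fit, 12 comparisons, 2-sided), adjusted by Benjamini-Hochberg across every gene tested, and a call at an adjusted p below 0.05. SE is the absolute log2 fold change divided by the square root of F. Alternatives were DESeq2 1.42.0, limma 3.58.1 voom with quality weights, RLE factors, no filter, no L-NAME group, a covariate, the cut-off of an unadjusted p below 0.01 and leaving out each mouse. Correlations used log2 CPM with a prior count of 2, and permutation tests permuted mice within groups 100000 times, so that 1e-05 is the smallest p they can give. The fitting steps were tested on simulated data (R 4.3.3, Python 3.11.15, scipy 1.17.1). Members and gene lists were chosen with earlier results of these data known. Named genes were all 10 markers, up to 4 called genes per list and comparison with the largest fold change, and the 10 genes most like the markers. Clec4g, Eng, Kdr, Stab2, Alb, Colec11, Pdgfrb, Saa1 and Lcn2 in mouse 8 were named after their values were seen. Labels do not say whether mice shared litters or cages. The p-values set group differences or correlations against the variation between these mice.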

Additional observations from a re-analysis of the deposited data

Results flagged for a closer look

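In the 70 sets of 8 mice (10 markers in 7 groups), 3 had a highest or lowest mouse whose gap to its neighbour exceeded 0.526 of the group's range, the 95% critical value of Dixon's test, and chance alone flags about 1 set in 20. Hgf was 8.9 CPM in mouse 29 of the 3 mg/kg ponatinib group, against 4.89 CPM in the next mouse. Dcn was 73.8 CPM in mouse 8 of the 10 mg/kg ponatinib group, against 207 CPM in the next mouse. Ngfr was 3.53 CPM in mouse 5 of the L-NAME group, against 8.45 CPM in the next mouse. The causes were not tested.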

How the results depend on the processing

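Ecm1 was called higher with imatinib under every alternative tool, scaling and filter tried except the covariate for reads outside genes, where the number of called markers was 0 with imatinib, with 10 mg/kg ponatinib and for imatinib against 30 mg/kg nilotinib. The last comparison also fell to 0 without a filter on low counts and without the L-NAME group. Voom with sample quality weights called 5 markers with imatinib (23.2% of all genes), 4 with 10 mg/kg ponatinib (26.1%), 2 with L-NAME (26.1%), 1 with 30 mg/kg nilotinib (16.4%), 2 for 10 mg/kg ponatinib (5.32%) and 3 for imatinib (7.51%) against 30 mg/kg nilotinib. DESeq2 called 1 with 30 mg/kg nilotinib (12.7% of the 9596 genes it tested) and 2 for 10 mg/kg ponatinib against 30 mg/kg nilotinib (3.66% of 11816). At an unadjusted p below 0.01, 1 marker passed with 30 mg/kg nilotinib (9.35% of all genes), 3 for 10 mg/kg ponatinib against 30 mg/kg nilotinib (5.64%), 2 for imatinib against 30 mg/kg nilotinib (7.55%) and 3 for 10 mg/kg ponatinib against 10 mg/kg nilotinib (6.73%). Without mouse 8 of ponatinib and mouse 10 of L-NAME, an alternative chosen after seeing the data, 1 was called with 30 mg/kg nilotinib and 0 for 10 mg/kg ponatinib against 10 mg/kg nilotinib. Leaving out each mouse in turn gave 0 to 1 called markers with imatinib and for imatinib against 30 mg/kg nilotinib, 0 to 2 with 10 mg/kg ponatinib, and 0 to 2 for 10 mg/kg ponatinib against either nilotinib dose. Without mouse 2, 24, 35 or 48 of the ponatinib group or control mouse 40 or 52, 0 markers were called with 10 mg/kg ponatinib.

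Of 120 marker fold changes 37 changed sign under at least 1 alternative, all within 1 SE of 0 and at most 0.23 in size, and 0 of them were called. The 68 followed here are the comparisons with control and the others with an unadjusted p below 0.01, a choice made after seeing the data. Des changed to -0.003 with 3 mg/kg ponatinib without a filter. With the covariate, Des changed to -0.033 with imatinib and -0.024 with 3 mg/kg ponatinib, Rgs5 to -0.003 with 10 mg/kg nilotinib and Ngfr to 0.17 with L-NAME. With voom, Des changed to -0.12 with imatinib and 0.13 with 10 mg/kg ponatinib, Reln to -0.087 and Ngfr to -0.047 with 10 mg/kg nilotinib, Lhx2 to -0.19 with 3 mg/kg ponatinib and Bmp5 to -0.11 with 10 mg/kg ponatinib. Without the 2 doubted mice Des changed to 0.055 with 10 mg/kg ponatinib. Leaving out single mice, Bmp5 ranged from -0.167 to 0.029 with imatinib, -0.012 to 0.203 with L-NAME, -0.042 to 0.156 with 30 mg/kg nilotinib, -0.047 to 0.223 with 10 mg/kg and -0.175 to 0.044 with 3 mg/kg ponatinib. Des ranged from -0.105 to 0.147 with imatinib, -0.166 to 0.055 with 10 mg/kg and -0.116 to 0.087 with 3 mg/kg ponatinib. Hgf ranged from -0.298 to 0.053, Lhx2 from -0.272 to 0.106, Reln from -0.047 to 0.125 and Rgs5 from -0.021 to 0.082 with 10 mg/kg nilotinib, Lhx2 from -0.147 to 0.179 with 3 mg/kg ponatinib and Ngfr from -0.136 to 0.111 with L-NAME. The median of all genes stayed within 0.1 of 0 under RLE factors, DESeq2, voom, the covariate, no filter and no L-NAME group.

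Counts of called list genes over the 6 comparisons with control also moved, as did those of all genes. The main fit called 1471 genes with imatinib, 1877 with 10 mg/kg ponatinib and 1688 with L-NAME. In these comparisons voom called 3327, 3743 and 3737, DESeq2 1836, 2223 and 2088, and the covariate fit 653, 369 and 258. With 3 mg/kg ponatinib voom called 571 genes against 6. Whether the lists moved more than all genes was not tested. For other stellate markers the count of 4 became 2 without the L-NAME group (which drops 1 comparison), 1 with the covariate, 17 with voom, 9 with DESeq2 and 8 without the doubted mice. Myofibroblast calls went from 17 to 26 with voom. Retinoid calls went from 8 to 3 with the covariate and 22 with voom, and Hgf-related calls from 5 to 3 without a filter, 2 with the covariate and 16 with voom. Receptor calls went from 5 to 3 without the L-NAME group and 3 with the covariate, and hepatocyte calls from 9 to 2 with the covariate and 17 with voom. Endothelial calls went from 0 to 3 with voom, 1 with DESeq2 and 1 without the doubted mice. Kupffer cell calls went from 7 to 1 with the covariate and 11 with voom. With voom portal fibroblast calls became 1, mesothelial 3 and cholangiocyte 2. Leukocyte calls went from 2 to 1 without a filter, without the L-NAME group and with the covariate, and to 4 with DESeq2. In control mice alone the relations of Lrat with Ngfr and Bmp5 passed by r (2 relations, permutation adjusted p = 0.0479 each), 0 passed by rho (lowest permutation adjusted p = 0.095), and of the 5 that passed in all mice Reln (0.197), Dcn (0.146), Rgs5 (0.957) and Des (0.273) did not. There r was -0.017 for Rgs5, -0.224 for Ecm1 and -0.059 for Lhx2. Without mouse 8, 3 passed and Ecm1 was at -0.07. No alternative on low counts was needed, since all 10 markers passed the filter. No paired analysis was possible because the groups compared share no replicate numbers. The lowest median counts were those of Hgf, Lhx2, Ngfr and Des. The causes of these changes were not tested.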
